A study of Mus musculus with 24 samples.

Results

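The 6 mouse genes Col4a1, Col4a2, Col4a3, Col4a4, Col4a5 and Col4a6 encode the chains of type IV collagen. They were taken by gene symbol from a deposited table of 55487 genes, and all 6 were found and passed the filter on low counts. The table comes from bulk RNA sequencing of kidneys from 24 male mice with X-linked Alport syndrome (XLAS), all on the B6 background, whose kidneys were taken at 15 weeks. Nbl1 encodes a secreted antagonist of bone morphogenetic proteins. By their labels 13 mice were HET (heterozygous) for it and 11 were WT (wild type), and the series asked what a partial reduction of Nbl1 does in this disease. Both genotypes therefore carry the Alport mutation. The labels name Col4a5 as the crossed gene and do not state its allele, and no kidney without Alport disease was analysed here, so the levels below are levels within diseased kidneys. Batch 1 held 6 HET and 6 WT mice and batch 2 held 7 HET and 5 WT mice.

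Type IV collagen is the network-forming collagen of basement membranes. Its chains wind into trimers with fixed partners. The products of Col4a1 and Col4a2 form the trimer found in nearly all basement membranes. The products of Col4a3, Col4a4 and Col4a5 form the trimer of the mature glomerular basement membrane, which podocytes secrete, and the products of Col4a5 and Col4a6 share a trimer found in Bowman's capsule and some other membranes. Mutations of Col4a5 cause X-linked Alport syndrome because the glomerular trimer cannot assemble without its chain, and the trimer of Col4a1 and Col4a2 products then persists in the glomerular basement membrane.

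Each library came from a separate mouse. Library totals were 29551543 to 33020033 expected counts in batch 1 and 36380502 to 50746817 in batch 2. Nbl1 held 3.46 to 10.04 CPM (counts scaled to a common library total) in HET libraries and 3.76 to 15.91 in WT libraries. In batch 1 the libraries labelled HET replicate 6, WT replicate 1 and WT replicate 2 went against their labels in their counts of Nbl1 and of its neighbour Htr6. HET replicate 6 held 299 Nbl1 counts and 0 Htr6 counts, beside 124 to 155 and 8 to 39 in the other HET libraries of that batch. WT replicates 1 and 2 held 177 and 115 Nbl1 counts and 26 and 14 Htr6 counts, beside 224 to 257 and 0 to 1 in the other WT libraries. Fold changes over all mice, the batch comparison, the ratios that differed most and the correlations past the threshold are therefore also given without them, whereas levels, shares, ranks and list counts are given with them only. Markers of kidney epithelium were present in all groups, with a mean of 13400 CPM for Kap of the proximal tubule, 2890 CPM for Umod of the loop of Henle and 32.5 CPM for Nphs1 of podocytes.

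The 6 genes lie in 3 pairs, and the genes of a pair are transcribed away from each other (GENCODE M21 on GRCm38, all protein coding). Col4a1 (ENSMUSG00000031502) spans 11198423 to 11312826 on the minus strand of chromosome 8, and Col4a2 (ENSMUSG00000031503) spans 11312805 to 11449287 on the plus strand, so that their first 22 bases overlap. Col4a4 (ENSMUSG00000067158) spans 82448423 to 82586849 on the minus strand of chromosome 1, and Col4a3 (ENSMUSG00000079465) spans 82586921 to 82722059 on the plus strand, with 71 bases between the starts. Col4a6 (ENSMUSG00000031273) spans 141165403 to 141474076 on the minus strand of chromosome X, and Col4a5 (ENSMUSG00000031274) spans 141475385 to 141689234 on the plus strand, with 1308 bases between the starts.

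The start regions of the first 2 pairs are shown because the genes within each of them moved together across kidneys in log2 CPM. The windows are from RefSeq on GRCm38.p6, run 5′ to 3′ on the strand of the named gene, and cover 250 bases before to 50 bases after its start. The Col4a1 window is chr8:11312777-11313076 on the minus strand and the Col4a2 window is chr8:11312555-11312854 on the plus strand, and capitals mark the 78 bases that both windows hold, read on opposite strands. The Col4a4 window is chr1:82586800-82587099 on the minus strand, and capitals mark the 71 bases between the Col4a4 and Col4a3 starts. RefSeq windows were matched for 5 of the 6 genes, the exception being Col4a3.
Col4a1: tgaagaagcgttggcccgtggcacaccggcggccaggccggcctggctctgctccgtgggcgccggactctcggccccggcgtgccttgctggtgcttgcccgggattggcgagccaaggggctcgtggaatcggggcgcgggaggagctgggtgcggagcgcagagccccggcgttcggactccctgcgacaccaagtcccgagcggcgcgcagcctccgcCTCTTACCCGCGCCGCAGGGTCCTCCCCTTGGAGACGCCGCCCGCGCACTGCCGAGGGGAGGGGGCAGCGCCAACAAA
Col4a2: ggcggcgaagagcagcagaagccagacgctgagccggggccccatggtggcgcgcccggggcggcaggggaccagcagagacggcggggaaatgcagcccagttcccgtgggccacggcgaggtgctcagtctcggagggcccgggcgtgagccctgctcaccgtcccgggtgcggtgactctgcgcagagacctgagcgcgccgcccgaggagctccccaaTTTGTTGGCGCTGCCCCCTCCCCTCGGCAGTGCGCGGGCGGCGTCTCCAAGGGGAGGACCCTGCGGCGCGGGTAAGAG
Col4a4: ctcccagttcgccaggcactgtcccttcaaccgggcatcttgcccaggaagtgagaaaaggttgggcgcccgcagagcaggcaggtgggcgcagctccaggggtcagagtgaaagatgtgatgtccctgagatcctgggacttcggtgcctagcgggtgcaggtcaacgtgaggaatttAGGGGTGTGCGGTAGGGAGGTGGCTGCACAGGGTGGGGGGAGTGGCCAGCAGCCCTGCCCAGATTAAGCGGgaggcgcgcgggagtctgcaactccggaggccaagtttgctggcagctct

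The windows differed in base composition. G and C made up 74.0% of the Col4a1 window and 73.7% of the Col4a2 window, against a median of 52.7% over all 32851 windows of the same length. The Col4a4 window held 63.3%, the Col4a5 window 52.7% and the Col4a6 window 48.3%. The dinucleotide CG occurred 37 times in the Col4a1 window, 33 times in the Col4a2 window, 14 times in the Col4a4 window, 11 times in the Col4a5 window and 3 times in the Col4a6 window, with a median of 7 over all windows. On both strands, 3 motifs were searched, none of which contains another. GGGCGG was found 3 times in the Col4a2 window, once each in those of Col4a1, Col4a5 and Col4a6, not in that of Col4a4, and in 35.7% of all windows. CCAAT was found once each for Col4a1, Col4a2 and Col4a5, not for Col4a4 or Col4a6, and in 37.4% of all windows. TATAAA was in none of the 5 windows and in 13.6% of all windows.

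Within a kidney the chains differed widely in level. TPM, which divides counts by transcript length before scaling them to a common total, was used to compare genes within a library, as shares of the TPM of all 6 chains. Col4a1 made up 33.2% ± 2.36 (SD, n = 24), Col4a3 26.9% ± 1.94, Col4a2 19.5% ± 1.45 and Col4a4 18.6% ± 1.61. Col4a5 made up 1.67% ± 0.194 and Col4a6 0.0281% ± 0.0098. Among 18339 tested genes ranked by mean TPM over both batches, Col4a1 was at place 974, Col4a3 at 1190, Col4a2 at 1625, Col4a4 at 1761, Col4a5 at 10137 and Col4a6 at 18261. TPM values were higher in batch 2, which therefore weighs more in these places: the mean was 33.4 in batch 1 and 66.7 in batch 2 for Col4a2, and 34.2 and 58.4 for Col4a4. A bulk sample cannot tell fewer cells of a type from less RNA per cell.

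**Figure D1:**
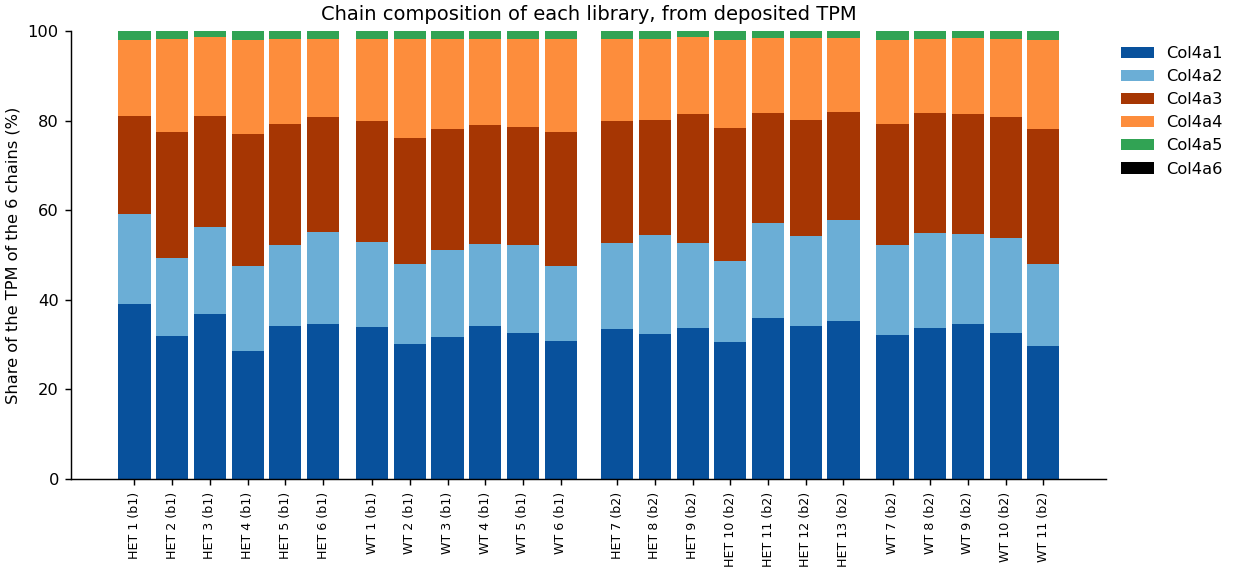
Share of each chain in the summed TPM of the 6 type IV collagen chains (vertical axis, percent) in each of the 24 libraries (horizontal axis, genotype, replicate and batch). Col4a1 and Col4a3 are the largest shares, Col4a5 is a thin band of 1.25% to 2.03%, and Col4a6, at no more than 0.0529%, is too small to be seen.

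The order of the chains was the same in most libraries. Col4a1 was above Col4a3 in 22 of 24 libraries, with a median TPM ratio of 1.25. Col4a3 was above Col4a2 and above Col4a4 in all 24. Col4a2 and Col4a4 had no fixed order: Col4a2 was higher in 4 of 12 libraries of batch 1 and in 10 of 12 of batch 2. The gap to Col4a5 was far larger than the spread between mice, since the Col4a3 TPM was 11 to 22.9 times that of Col4a5, with a median of 16.2. Of the summed TPM of Col4a3, Col4a4 and Col4a5, the 3 partners of the glomerular trimer, Col4a5 held 3.54% ± 0.438 (SD, n = 24), with a range of 2.65% to 4.91%. Col4a6 was near the limit of detection, with 5 to 29 counts per library.

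The length that the deposited FPKM implies for a gene differed between libraries, and this enters every TPM ratio. For Col4a1 its median was 4908 bases in batch 1 and 5606 in batch 2, whereas for Col4a2 it was 5804 and 6116. The TPM ratio of Col4a1 to Col4a2 was 1.77 ± 0.128 (SD, n = 12) in batch 1 and 1.64 ± 0.0937 (n = 12) in batch 2. The ratio of their counts, which uses no length, was 1.5 ± 0.0499 in batch 1 and 1.51 ± 0.0496 in batch 2, and ranged from 1.41 to 1.58 over the 24 libraries. Its coefficient of variation over all libraries was 3.26%, against 7.42% for the TPM ratio. For Col4a3 to Col4a4 both ratios were higher in batch 2: the TPM ratio was 1.38 ± 0.0677 in batch 1 and 1.51 ± 0.0746 in batch 2, and the count ratio was 1.23 ± 0.0521 and 1.34 ± 0.0621.

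The question of the series for these genes is whether kidneys HET for Nbl1 differ from WT kidneys in any chain. Levels were compared between libraries as CPM after TMM scaling. None of the chains passed edgeR's quasi-likelihood test with batch as a covariate and Benjamini-Hochberg adjustment over all tested genes, so 0 of 6 were called, beside 0% of the 18339 tested genes. The smallest adjusted p of that edgeR test over all tested genes was 0.997, so it did not call Nbl1 either. DESeq2 and limma voom also called 0 of 6. At an unadjusted p under 0.05, 1 of 6 chains was lower in HET kidneys, Col4a3, beside 1.64% of all tested genes. Of the 6 chains 4 had a negative log2 fold change in both batches, beside 21.7% of tested genes, and these were Col4a3, Col4a4, Col4a5 and Col4a6.

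Col4a1 encodes a chain of the trimer found in nearly all basement membranes. In batch 1 it had a lowest, median and highest level of 380, 434 and 489 CPM in HET kidneys, and of 372, 421 and 457 CPM in WT kidneys. In batch 2 the HET values were 401, 450 and 508 CPM, and the 5 WT kidneys held 421, 513, 497, 476 and 418 CPM. The genotypes overlapped throughout in both batches. Over all mice HET kidneys held 100% of the WT level (95% interval 93.6% to 107%), and edgeR's adjusted p was 1.0.

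Col4a2 encodes the partner chain of Col4a1. In batch 1 its lowest, median and highest levels were 263, 294 and 315 CPM in HET kidneys and 257, 281 and 290 CPM in WT kidneys. In batch 2 they were 267, 307 and 330 CPM in HET kidneys, and the 5 WT kidneys held 295, 354.3, 319, 322 and 272 CPM. HET kidneys held 100% of the WT level (interval 94.0% to 107%, edgeR's adjusted p 0.997). The log2 fold changes of Col4a1 and Col4a2 lay so close to 0 that their sign changed under other settings and when the 3 doubted libraries were left out, with values of -0.023 and -0.031.

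Col4a3, a chain of the glomerular trimer, had its lowest, median and highest levels in batch 1 at 428, 550 and 582 CPM in HET kidneys and at 538, 566 and 606 CPM in WT kidneys. In batch 2 they were 482, 522 and 586 CPM in HET kidneys, and the 5 WT kidneys held 531, 584, 574, 555 and 587 CPM. The groups overlapped in both batches, with 2 of 6 HET kidneys of batch 1 and 4 of 7 of batch 2 below the lowest WT kidney. Counts below the lowest WT kidney, here and for Col4a4, Col4a5 and Col4a6, are description only. The share of all tested genes with such counts was not determined. The HET mean was 533 ± 46.2 CPM (SD, n = 13) and the WT mean 566 ± 22.7 CPM (n = 11). HET kidneys held 94.2% of the WT level (interval 88.7% to 100%), a log2 fold change of -0.09 (SE 0.04). In edgeR's test the unadjusted p was 0.0493 and the adjusted p was 0.997. A two-sided permutation test within batches gave 0.0448, with no adjustment for the number of chains. Within batches the log2 fold change was -0.08 and -0.11, with adjusted p of 1.0 and 0.613 by edgeR. The batch 1 value leaned on HET replicate 1, the kidney at 428 CPM, and was -0.0266 without it. Over all mice the value without that kidney was -0.0706.

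Col4a4, the chain whose gene starts beside that of Col4a3, showed a difference of like size. In batch 1 its lowest, median and highest levels were 373, 442 and 471 CPM in HET kidneys and 409, 474 and 477 CPM in WT kidneys, and all 6 HET kidneys lay below the WT median, which was also so for 4.43% of tested genes. In batch 2 they were 360, 390 and 437 CPM in HET kidneys, and the 5 WT kidneys held 414, 412, 412, 408 and 437 CPM. There, 4 of 7 HET kidneys lay below the lowest WT kidney. HET kidneys held 95% of the WT level (interval 89.9% to 100%). The unadjusted p of edgeR was 0.0606 and the adjusted one 0.997. Without the 3 doubted libraries the log2 fold change was -0.104 for Col4a3 and -0.0912 for Col4a4, both with an edgeR adjusted p of 0.919, and in batch 1 they were -0.0958 and -0.103. With only HET replicate 1 left out, the batch 1 value of Col4a4 was -0.0483.

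Col4a5, the gene at the X-linked Alport locus, was at 22.2, 25.7 and 27.3 CPM (lowest, median, highest) in HET kidneys of batch 1 and at 23.2, 25.5 and 26.7 CPM in WT kidneys. In batch 2 the HET values were 17.3, 21.2 and 24.8 CPM, and the 5 WT kidneys held 27.2, 26.6, 22.2, 22.1 and 22.3 CPM. In batch 2, 5 of 7 HET kidneys lay below the lowest WT kidney, and in batch 1, 1 of 6 did, with no share over all tested genes determined. The log2 fold change was -0.01 (SE 0.06) in batch 1 and -0.18 (SE 0.08) in batch 2, where edgeR's adjusted p was 0.595 and the exact permutation test gave 0.122. Batch 2 had 0.00545% of tested genes past the threshold, a single gene that was Htr6. The difference between the batches was itself tested as an interaction and did not pass, with a log2 value of -0.14 and an adjusted p of 0.713 by edgeR, beside 0% of tested genes, and the value was -0.171 without the 3 doubted libraries. Over all mice HET kidneys held 94.2% of the WT level of Col4a5 (interval 87.3% to 102%, edgeR's adjusted p 0.997).

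Col4a6 was too sparse for a close comparison. Its mean was 0.392 ± 0.099 CPM in the 13 HET kidneys and 0.496 ± 0.173 CPM in the 11 WT kidneys (SD). In batch 2 the lowest, median and highest levels of the 7 HET kidneys were 0.268, 0.32 and 0.547 CPM. The 5 WT kidneys held 0.51, 0.353, 0.404, 0.468 and 0.643 CPM, and 5 of 7 HET kidneys lay below the lowest of them. A two-sided exact permutation test, with no adjustment for the number of chains, gave p 0.0442 in batch 2 and 0.838 in batch 1. By edgeR the batch 2 log2 fold change was -0.48 (SE 0.25, p 0.073). It did not pass, with 0.621 after adjustment over all tested genes. The batch 2 values rest on 8 to 27 counts per library. Over all mice HET kidneys held 79.7% of the WT level (interval 60.5% to 105%, edgeR's adjusted p 0.997). Without the 3 doubted libraries the log2 fold change was -0.107 for Col4a5 and -0.346 for Col4a6, both with an edgeR adjusted p of 0.919. The spread between kidneys of a group was 0.417 on the log2 scale, of which counting alone gives 0.361. For the other chains the spread was well above counting error, at 0.122 against 0.0114 for Col4a1 and at 0.134 against 0.0491 for Col4a5.

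**Figure D2:**
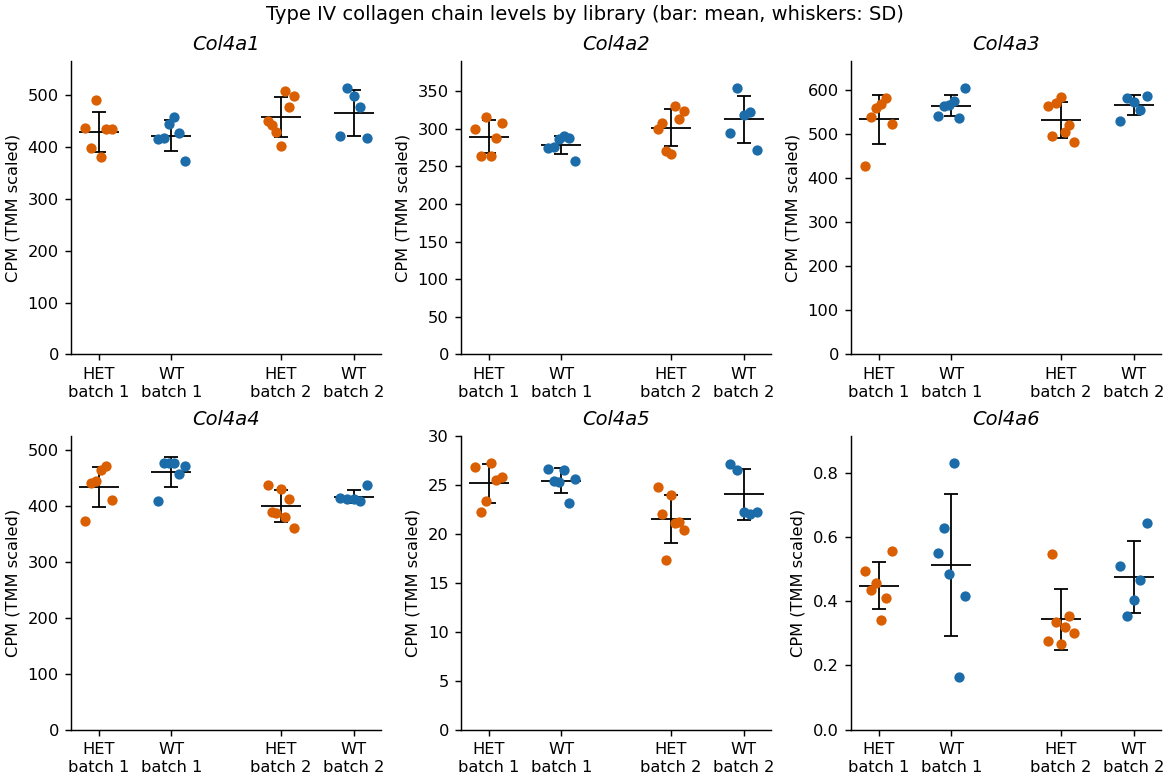
Level of each type IV collagen chain (vertical axes, TMM-scaled CPM, each starting at 0) in every library, by genotype and batch (horizontal axes). Points are libraries, wide bars are means and whiskers are SD. HET and WT points overlap in every panel, and Col4a6 lies below 1 CPM in all libraries.

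**Figure D3:**
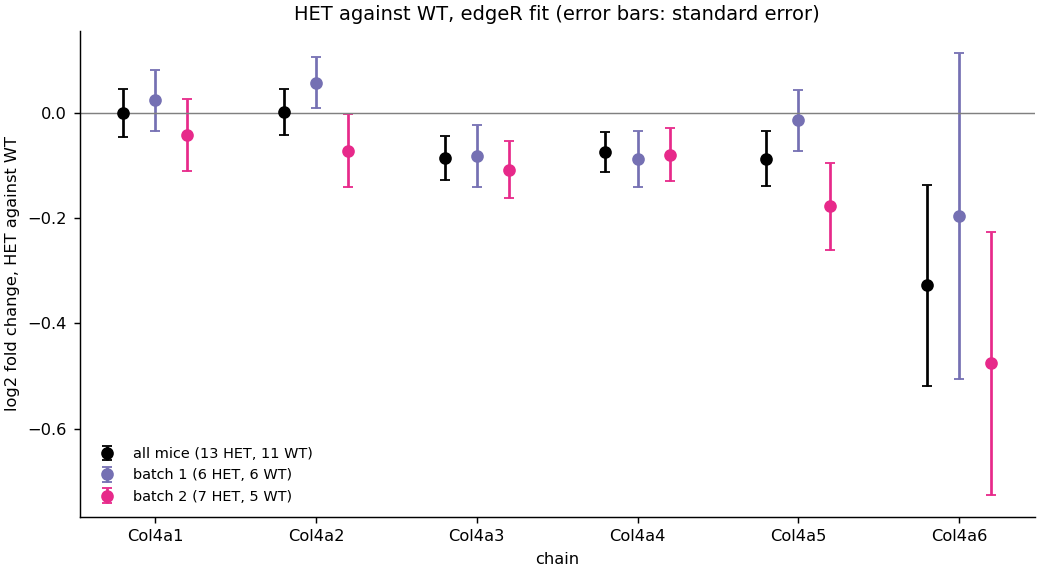
Log2 fold change of HET against WT (vertical axis) for each chain (horizontal axis), from edgeR's fit to all mice and to each batch. Bars are standard errors. Col4a1 and Col4a2 lie at 0 in the fit to all mice and on opposite sides of it in the batches, Col4a3 and Col4a4 lie between -0.07 and -0.11 in all 3 fits, and Col4a6 has the widest bars.

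Ratios between chains within a kidney were compared between the genotypes, 7 in all, with 0.1 added to each TPM value or sum. That is above the mean Col4a6 TPM of 0.0688, so the ratio of Col4a5 to Col4a6 depends on it. None passed, so 0 of 7 were called after Benjamini-Hochberg adjustment of two-sided permutation tests within batch, and 0 of 7 had an unadjusted p under 0.05. The largest difference was in the ratio of Col4a1 to Col4a3, whose log2 TPM ratio was 0.13 higher in HET kidneys (SE 0.08, permutation p 0.134, adjusted p 0.544). The ratio of Col4a1 plus Col4a2 to Col4a3 plus Col4a4 plus Col4a5 sets RNA of the general trimer's chains against RNA of the glomerular trimer's chains. It does not measure assembled trimers. Over all kidneys it was 1.13 ± 0.149 in TPM and 0.744 ± 0.1 in counts (SD, n = 24). The log2 TPM ratio was 0.11 higher in HET kidneys (SE 0.08, permutation p 0.155, adjusted p 0.544). Its difference was 0.15 in batch 1 and 0.07 in batch 2, with exact permutation p of 0.232 and 0.487. Without the 3 doubted libraries these differences over all mice were 0.116 and 0.0939, both with an adjusted permutation p of 0.659. Col4a3 to Col4a4 differed by -0.01 (SE 0.03, permutation p 0.641). Col4a4 to Col4a5 differed by -0.11 in batch 1 and 0.17 in batch 2, with exact permutation p of 0.348 and 0.0593.

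Across kidneys, 2 pairs of chains moved together in log2 CPM. Log2 CPM values were taken as deviations from the mean of their genotype and batch, so that differences between the group means did not enter, and the 15 pairs of chains were tested by permuting libraries within genotype and batch. Col4a1 and Col4a2 had a Pearson r of 0.921 (n = 24, permutation p 1e-05, the smallest that 100000 permutations can give, adjusted p 0.00015) and a Spearman rho of 0.909 (adjusted permutation p 0.00015). The r was 0.921 in batch 1 and 0.932 in batch 2, and 0.906 without the 2 kidneys farthest from the median of Col4a1. Col4a3 and Col4a4 had an r of 0.802 (permutation p 0.00012, adjusted p 0.0009) and a rho of 0.692 (adjusted permutation p 0.00945). Their r was 0.855 in batch 1 and 0.709 in batch 2, and 0.659 without the 2 farthest kidneys. These were the 2 pairs of 15 past the threshold, and both stayed past it when any single library was left out, with r from 0.909 to 0.933 and from 0.703 to 0.853. Without the 3 doubted libraries they were 0.931 and 0.85 (adjusted permutation p 0.00015 and 0.00817).

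Col4a5 correlated with neither of its trimer partners past the threshold in log2 CPM. Its r was -0.06 with Col4a3 and 0.14 with Col4a4 (adjusted permutation p 0.91 and 0.854), whereas in log2(TPM + 1) they were 0.388 and 0.506, of which that with Col4a4 passed (adjusted permutation p 0.131 and 0.0379). With Col4a6, the neighbour on chromosome X, its r was 0.0836 and its rho 0.00174 (adjusted permutation p 0.854 and 0.995), over Col4a6 counts of 5 to 29. No correlation across the first pair and the second passed in log2 CPM. The r of Col4a1 was -0.29 with both Col4a3 and Col4a4, and that of Col4a2 was -0.42 with Col4a3 and -0.38 with Col4a4, none past the threshold, and all 4 were positive in log2(TPM + 1), at 0.402 to 0.513, and with libraries scaled by their totals alone, at 0.059 to 0.181. In log2(TPM + 1), 4 of 15 pairs passed, and Col4a2 with Col4a4 (r 0.513, adjusted permutation p 0.0379) was among them.

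**Figure D4:**
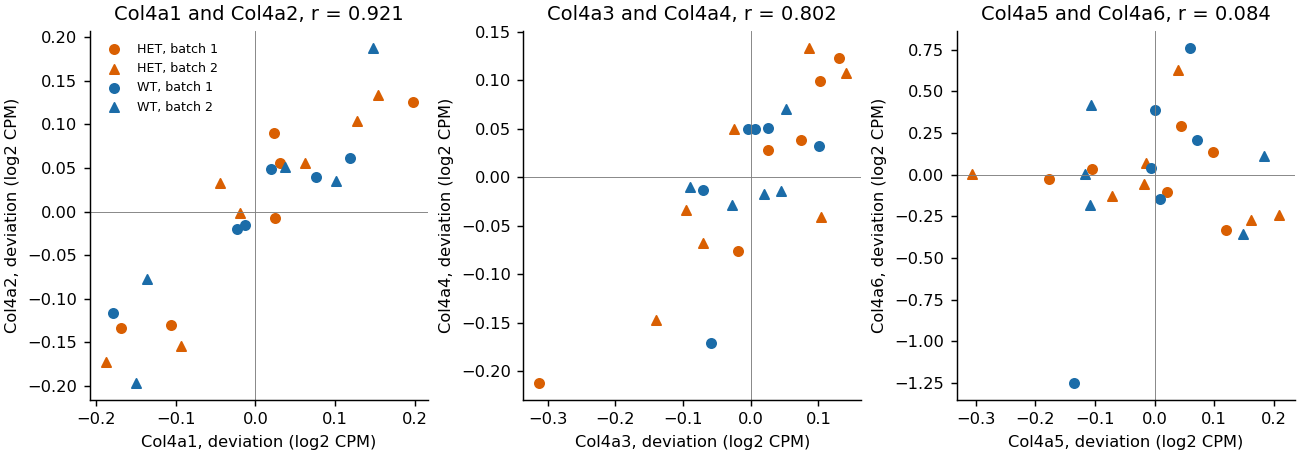
Deviation of each library from the mean of its genotype and batch, in log2 CPM, for the partners of the 3 gene pairs (one chain on each axis). Points are 24 libraries, coloured by genotype and shaped by batch. Col4a1 and Col4a2 lie along a line (r = 0.921), Col4a3 and Col4a4 do so more loosely (r = 0.802), and Col4a5 and Col4a6 show no line (r = 0.0836).

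The chains were also set against the mean log2 CPM of 6 lists of marker genes, treated in the same way, giving 36 correlations of which 8 passed. Col4a2 correlated with the list of fibrillar collagen and fibrosis genes, such as Col1a1 and Col3a1, with an r of 0.774 and a rho of 0.655 (n = 24, adjusted permutation p 0.00576 and 0.0244). The r was 0.629 in batch 1 and 0.864 in batch 2, and 0.667 without the 2 farthest kidneys. Col4a1 did so with an r of 0.705 and a rho of 0.654 (adjusted permutation p 0.0112 and 0.0244), at 0.514 and 0.85 within batches. Both chains also correlated with the tubular injury list, of which Spp1 is the most abundant member, with an r of 0.644 for Col4a1 and 0.586 for Col4a2 (adjusted permutation p 0.0273 and 0.045). With the list of mesangial, smooth muscle and renin cell markers, r was 0.584 for Col4a2 (adjusted permutation p 0.0338), -0.525 for Col4a3 (0.0294) and -0.615 for Col4a4 (0.013). Col4a4 also had an r of -0.53 with the fibrosis list (adjusted permutation p 0.0376). The rho of Col4a2 did not pass for the mesangial and the tubular injury list, with adjusted permutation p of 0.124 and 0.125.

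Most of these calls were not stable. Without the 3 doubted libraries 2 of the 8 remained past the threshold, those of Col4a1 and Col4a2 with the fibrosis list. With any single library left out, the call of Col4a2 with the fibrosis list was kept each time. That of Col4a1 was lost without HET replicate 10 (adjusted permutation p 0.0503). The call of Col4a1 with tubular injury was lost without HET replicate 4, 10 or 13 or WT replicate 11 (0.0545 to 0.101), and that of Col4a2 without any of 17 libraries (0.0518 to 0.141). With the mesangial list, Col4a2 lost its call without HET replicate 1, 2, 4, 10 or 13 or WT replicate 8 or 11 (0.0507 to 0.119), Col4a3 without HET replicate 1, 4, 10 or 13 or WT replicate 11 (0.0545 to 0.105), and Col4a4 without HET replicate 10 or WT replicate 11 (0.0503 and 0.056). Col4a4 with the fibrosis list was lost without any of 9 libraries (0.0507 to 0.161). In log2(TPM + 1) the negative correlations of Col4a3 and Col4a4 were positive, at 0.279 to 0.33. No chain passed with the podocyte list in log2 CPM. With the mean of 16 podocyte genes, Col4a3 had an r of -0.03 and Col4a4 of -0.13, and these were 0.531 and 0.502 in log2(TPM + 1). The lists of proximal tubule genes and of loop of Henle and distal tubule genes were not set against the chains. Which cells the Col4a3 and Col4a4 RNA came from was not tested.

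**Figure D5:**
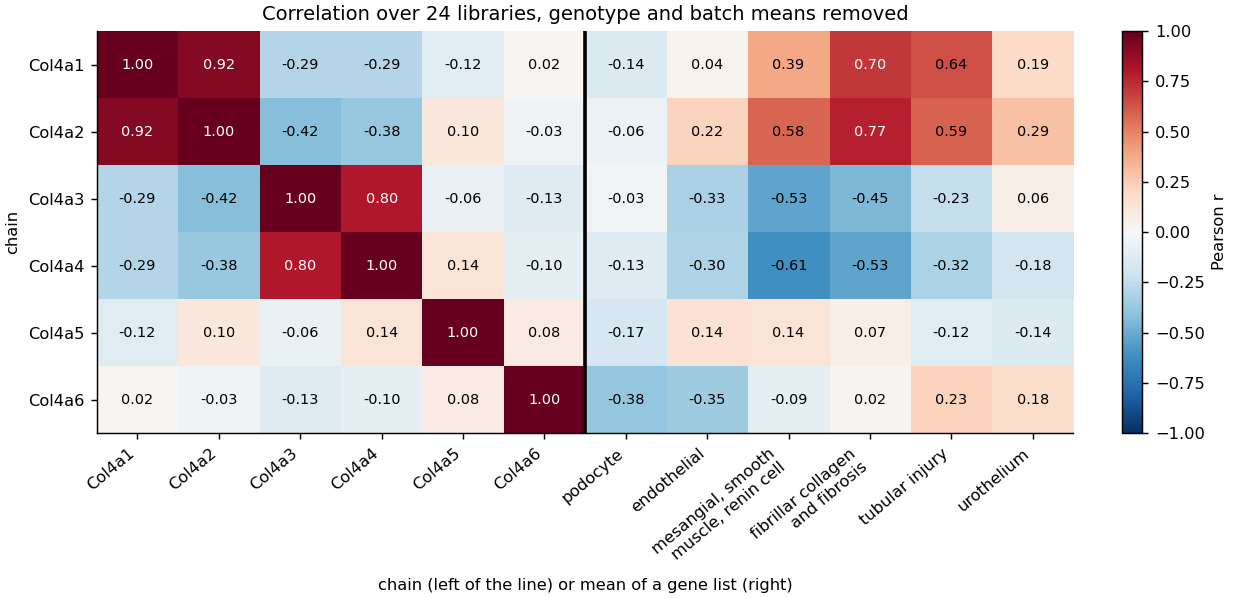
Pearson r over 24 libraries between each chain (rows) and the other chains (columns left of the line) or the mean log2 CPM of 6 gene lists (columns right of the line), after removing genotype and batch means. Red is positive and blue negative. The blocks of Col4a1 with Col4a2 and of Col4a3 with Col4a4 stand out, and the rows of Col4a5 and Col4a6 are pale.

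The genes whose deviations were most like those of each chain were ranked by Pearson r over the 24 libraries among genes with a mean of at least 1 CPM, as a description with no test. Of 15359 genes, Col4a2 ranked first for Col4a1 and Col4a1 ranked first for Col4a2. Next to Col4a1 came Col6a2, a chain of type VI collagen, with an r of 0.88, and Col1a1, a chain of type I collagen, with 0.853. Next to Col4a2 came Stab1, a scavenger receptor, with 0.888, and Col1a1 with 0.879. Col4a4 ranked 2 for Col4a3, after Htra1, a secreted serine protease, with 0.821, and before Slc25a22, a mitochondrial glutamate carrier, with 0.73. Col4a3 ranked 2 for Col4a4, after the unnamed gene model Gm49179 with 0.86 and before Gk5 with 0.781. For Col4a5 the first were Arhgap32 with 0.86 and Gm43637 with 0.851, and its partner Col4a4 ranked 5164. For Col4a6 they were Hddc2 with 0.812, Cdh4 with 0.755 and Hspb11 with 0.751, and Col4a5 ranked 5222 of 15360. The values behind these ranks share their libraries and scaling.

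The batches differed in most genes and also in the chains. With genotype in the model, 4 of 6 chains passed edgeR's test of batch 2 against batch 1, beside 63.5% of all tested genes, so the share among the chains is near that of all genes. Col4a1 was at 108% of its batch 1 level (interval 101% to 116%, adjusted p 0.028) and Col4a2 at 108% (101% to 115%, adjusted p 0.0332). Col4a4 was at 91.3% (86.5% to 96.4%, adjusted p 0.00346) and Col4a5 at 89.5% (83.0% to 96.5%, adjusted p 0.009). Col4a3 was at 99.9% (94.0% to 106%) and Col4a6 at 84.0% (63.8% to 111%), and neither passed. These percentages are from TMM-scaled counts. In deposited TPM the mean of every chain was higher in batch 2. For Col4a4 it was 34.2 in batch 1 and 58.4 in batch 2, and for Col4a5 it was 3.01 and 5.35. Batch was not tested in TPM. The summed level of the endothelial list ranged from 528 to 688 CPM in batch 1 and from 729 to 833 CPM in batch 2. That of the loop of Henle and distal tubule list ranged from 4700 to 5320 CPM and from 5540 to 7040 CPM. The ranges of all other marker lists overlapped between the batches. For podocyte genes they were 736 to 858 and 795 to 900 CPM, and for proximal tubule genes 28500 to 33700 and 27400 to 35700 CPM. The part of these lists in the chain levels was not tested. Without the 3 doubted libraries 2 chains passed, Col4a4 and Col4a5, and the log2 fold changes of Col4a1 and Col4a2 were 0.105 and 0.103 (adjusted p 0.0929 and 0.0789 by edgeR). The calls of Col4a1 and Col4a2 were also lost without 1 library in 10 and 14 of 24 cases, with adjusted p of 0.0517 to 0.0952 and of 0.0538 to 0.134. For Col4a1 these were HET replicates 2, 4 and 11 and WT replicates 1, 2, 5, 6, 8, 9 and 10, and for Col4a2 also HET replicates 5 and 13 and WT replicates 3 and 4.

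The genes that build, modify, cross-link and bind type IV collagen were described in the same fit of HET against WT. In 13 lists of partner genes and cell type markers, 0 members passed edgeR's test in either direction, and this held in DESeq2 and limma voom. The median log2 fold change was -0.08 for the 6 chains, of which 4 were negative, beside 0.01 for all tested genes, of which 43.7% were negative. It was 0.01 for 22 basement membrane partners, 10 of them negative. Among these Lama5, the laminin chain of the mature glomerular basement membrane, had a log2 fold change of -0.09 (SE 0.05), Lama1 of -0.09 (SE 0.04) and Lamb1, the most abundant, of 0.02 (SE 0.04), with edgeR adjusted p of 0.997 for each.

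For 23 measured genes of collagen folding, modification and export the median was 0.01, with 7 negative. P3h2, a prolyl hydroxylase that acts on type IV collagen, had the smallest p of this list, with a log2 fold change of 0.12 (SE 0.05, unadjusted p 0.0134, adjusted p 0.997 by edgeR). P4ha1, a subunit of prolyl 4-hydroxylase, was at 0.17 (SE 0.10), and P4hb, its partner subunit and the most abundant member, at 0.04 (SE 0.03). Among 16 genes of cross-linking and turnover, 8 were negative. Pxdn, the peroxidase that forms the sulfilimine cross-links of type IV collagen, was at -0.10 (SE 0.04), Loxl4 of the lysyl oxidase family at 0.19 (SE 0.09), and Timp3, an inhibitor of matrix metalloproteinases, at -0.01 (SE 0.05). Of 12 collagen receptors 5 were negative, with Ddr2, a collagen-binding receptor tyrosine kinase, at 0.10 (SE 0.04), Itga11 at 0.19 (SE 0.12) and Itgb1, the common integrin subunit, at 0.03 (SE 0.03). None of these genes passed.

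No member of the marker lists passed with genotype. Of 16 podocyte genes 14 were negative, beside 43.7% of all tested genes, with a median log2 fold change of -0.04. Genes of a list share their libraries, and the counts of negative genes were not tested. The summed podocyte level in batch 1 was 760 to 803 CPM in HET and 736 to 858 CPM in WT kidneys. In batch 2 it was 795 to 900 and 819 to 874 CPM. Cdkn1c, a cell cycle inhibitor of podocytes, was at -0.13 (SE 0.06), Nphs1, the nephrin of the slit diaphragm, at -0.07 (SE 0.04), and Podxl at -0.0027 (SE 0.03). The part of podocyte number in the Col4a3 and Col4a4 values was not tested, and no podocyte marker was at 0 over the libraries. Of 14 fibrosis genes 4 were negative with a median of 0.03, and of 12 mesangial, smooth muscle and renin cell genes 9 were negative with a median of -0.04. Col3a1, a fibrillar collagen, was at 0.05 (SE 0.11), with 0.16 in batch 1 and -0.08 in batch 2, Tagln at 0.17 (SE 0.09) and Col5a3 at -0.19 (SE 0.10). Among the mesangial group Tbx18 was at -0.45 (SE 0.27), Rgs5 at -0.06 (SE 0.05) and Pdgfra at 0.04 (SE 0.07).

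The other cell type lists gave no call either, and their counts of negative genes, beside the same 43.7% of all tested genes, were not tested. Of 12 endothelial genes 2 were negative, with Esam at 0.10 (SE 0.06), Egfl7 at 0.08 (SE 0.05) and Eng at -0.02 (SE 0.04). Of 10 tubular injury genes 4 were negative, with Cdkn1a at 0.18 (SE 0.13), Plaur at 0.13 (SE 0.11) and Spp1 at 0.01 (SE 0.14). Of 10 proximal tubule genes 6 were negative, with the anion transporter Slc22a6 at -0.08 (SE 0.04), the glucose transporter Slc5a2 at -0.07 (SE 0.05) and Kap at 0.03 (SE 0.06). Of 8 genes of the loop of Henle and distal tubule 2 were negative, with Umod at 0.11 (SE 0.04, unadjusted p 0.0101, adjusted p 0.997 by edgeR) and Ptger3 at 0.13 (SE 0.06). Of 9 urothelial genes 1 was negative, with Krt15 at 0.43 (SE 0.17), Upk1a at 0.14 (SE 0.17) and Psca at 0.07 (SE 0.14). All 7 adipose genes were negative over all mice, with Lipe at -0.15 (SE 0.19) and Plin1 at -0.48 (SE 0.69), while their median was 0.28 in batch 1 and -0.75 in batch 2.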

How the data were processed

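Expression was measured by bulk mRNA sequencing of 24 mouse kidneys. The table the authors deposited gives TPM, FPKM and expected counts of 55487 genes for every library. The submitters' processing notes name fastp, STAR and featureCounts and the build GRCm38 (mm10). Tool versions, the strand setting and the annotation were not given in the sources used here. Without a stated strand, reads of the overlapping first bases of Col4a1 and Col4a2 cannot be told apart. The deposited expected counts, with decimals in 11.8% to 15.4% of genes, were rounded before testing.

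Genes were kept by filterByExpr of edgeR 4.0.16 (R 4.3.3, minimum count 10), leaving 18339 genes that hold 99.9% of counts. After TMM scaling, genotypes were compared with edgeR's robust quasi-likelihood test, with batch as a covariate and adjusted p under 0.05 as the threshold. The test was also run within each batch, for genotype by batch and for batch. Ratios used the authors' deposited TPM, with 0.1 added in the tests and nothing added in the levels. Correlations used log2 CPM with a prior count of 2. Permutation tests were two-sided, with 100000 permutations over all mice or exact within a batch. Deposited TPM, deposited FPKM, DESeq2 1.42.0 and limma 3.58.1 served as alternatives. The edgeR fit was tested on simulated data. In log2(TPM + 1) and log2(FPKM + 1), fold changes of low genes are understated.

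Groups came from the genotype labels. HET replicate 8 was matched to its column by library name, since its title names another animal. The named genes are the 6 chains, Nbl1, the 2 members of smallest p and the 1 of highest mean CPM in each list, and the 3 genes most like each chain, of which 1 is not reported here. Htr6 was chosen after its values were seen. Members and lists were chosen with earlier results of these data known.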

Additional observations from a re-analysis of the deposited data

Results flagged for a closer look

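In groups of 5 to 7 libraries of 1 genotype and batch, a library was singled out when its gap to the nearest other library was large against the range of its group. This was so 8 times among 52 groups of values, where chance gives about 1 in 20, or 2.6. The groups are not independent, since the ratios were built from the same chain values, and an excess was not tested. Col4a3 was at 428 CPM in HET replicate 1, and the other HET kidneys of batch 1 held 524 to 582 CPM. Col4a4 was at 409 CPM in the library labelled WT replicate 1, one of those that go against their labels, and the others of its group held 456 to 477 CPM. In WT replicate 11 Col4a4 was at 437 CPM, and the others held 408 to 414 CPM. Col4a6 was at 0.547 CPM in HET replicate 8, against 0.268 to 0.354 CPM in its group.

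The TPM ratio of Col4a3 to Col4a4 was 1.67 in HET replicate 9, against 1.42 to 1.5 in its group, and the ratio of Col4a3 to Col4a5 in the same kidney was 22.9, against 15.9 to 17.4. The ratio of Col4a5 to Col4a6 was 82.0 in HET replicate 4, against 52.6 to 59.2, and 151 in WT replicate 5, against 32.4 to 61.4. These 2 values rest on Col4a6 counts of 11 in HET replicate 4 and 5 in WT replicate 5.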

How the results depend on the processing

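No paired analysis was possible because replicate numbers follow the order of deposition and tie no HET mouse to a WT mouse. The count of 0 chains called for HET against WT held over all mice, in each batch and for the interaction under all alternatives run, as did 0 ratios and 0 list members. Col4a1, near 0 over all mice, turned negative with DESeq2's size factors in edgeR (-0.00172), without the filter (-0.0103), in DESeq2 (-0.00171), without the 3 doubted libraries (-0.0231), in limma voom (-0.000263), in log2(TPM + 1) (-0.00776) and in log2(FPKM + 1) (-0.0238). Col4a2 turned negative without the filter (-0.00788), without those libraries (-0.0308), in TPM (-0.0394) and in FPKM (-0.0549). Leaving out each library in turn gave -0.0333 to 0.0151 for Col4a1 and -0.0245 to 0.0198 for Col4a2 over all mice, -0.0173 to 0.0568 for Col4a1 and -0.0424 to 0.0175 for Col4a5 in batch 1, and interaction values of -0.0827 to 0.0172 for Col4a3 and -0.0321 to 0.0517 for Col4a4. For batch 2 against batch 1, 2 chains were called without the doubted libraries and 2 to 4 without any single library, and Col4a3 was at 0.016 without the filter and at -0.0373 to 0.00993 without single libraries. The HET difference in the log2 ratio of Col4a5 to Col4a6 was -0.105 with 1 TPM added, -0.0184 in FPKM, -0.0604 without the doubted libraries and -0.038 to 0.0546 without single libraries. That of Col4a3 to Col4a5 was -0.00317 with 1 TPM added, -0.00221 in counts and -0.0193 to 0.0665 without single libraries, and that of Col4a1 to Col4a2 was -0.00266 in counts. Ratios of counts, and scaling by totals alone, were added after seeing the data.

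Among chain pairs, 4 passed in log2(TPM + 1) and 2 without any single library. In log2(TPM + 1) the r of Col4a1 was 0.446 with Col4a3 and 0.402 with Col4a4, that of Col4a2 was 0.494 and 0.513, and that of Col4a5 was 0.388 with Col4a3. Col4a4 with Col4a5 was 0.506 and passed, as did Col4a2 with Col4a4. With totals alone the first 5 were 0.132, 0.181, 0.059, 0.141 and 0.0313. With only batch means removed, Col4a3 with Col4a5 was 0.0817. Without single libraries it was -0.17 to 0.0893, and Col4a5 with Col4a6 was -0.148 to 0.151. Of the list correlations 15 passed in log2(TPM + 1), 2 without the doubted libraries and 1 to 8 without single libraries. In log2(TPM + 1) Col4a3 had 0.531 with the podocyte and 0.33 with the mesangial list, and Col4a4 had 0.502 and 0.322, and 0.279 with fibrosis. The podocyte values without the doubted libraries were 0.00403 for Col4a3 and 0.0417 for Col4a4, and without single libraries -0.127 to 0.0331 and -0.26 to 0.0287. The cause of these changes was not tested. Depth limits Col4a6 most, at 5 to 29 counts.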
